A study of Mus musculus with 4 samples.

Results

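The Ifitm genes measured here were Ifitm1, Ifitm2, Ifitm3 and Ifitm6 of the mouse, 4 of the 18193 genes on the array. They were taken as every probe set that the platform annotation ties to exactly 1 of these gene symbols, which gave 4 probe sets of 45037, 1 for each gene. The genes were chosen with their signals on these arrays known, so their levels and differences are descriptions and carry no test. Each of 4 sorted bone marrow populations was measured once, on 1 single-colour Affymetrix array. Granulocytes were bone marrow cells of high granularity with strong Gr-1, and stained smears put their purity at 99.4%. All the others were drawn from cells held on c-Kit beads and left after removing those with antigens of mature lineages: the T cell antigens CD3, CD4 and CD8, B220 of B cells, CD11b and Gr-1 of myeloid cells, and Ter119 of red cells. Within them, haematopoietic progenitor cells (HPC) lacked Sca-1, long-term repopulating stem cells (LT-HSC) had Sca-1 without CD34, and short-term repopulating stem cells (ST-HSC) had both. No population carried a mutation or treatment in the labels, and the sources used here give no strain, age or number of animals. RNA came from 50 to 200 cells per population and went through 2 rounds of amplification.

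IFITM proteins are small membrane proteins of the CD225 domain family, induced by interferons, that sit in the plasma membrane and in endosomes and block the fusion of enveloped viruses with the cell. Ifitm3, also called fragilis, acts mainly in endosomes and restricts influenza virus. Ifitm1 acts more at the cell surface, Ifitm2 is a close relative of Ifitm3, and Ifitm6 has been described in mouse macrophages. Stem cells of several tissues are known to hold part of their interferon-stimulated genes at a standing level without interferon, and Ifitm1 and Ifitm3 are also known from germ cells.

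The 4 genes lie next to each other in the order Ifitm2, Ifitm1, Ifitm3 and Ifitm6 within 62.06 kb of chromosome 7, with the bone gene Ifitm5 before Ifitm2 (RefSeq annotation, GRCm38.p6). Ifitm1, at chr7:140967429-140969827, is on the plus strand. Ifitm2 (chr7:140954837-140959686), Ifitm3 (chr7:141009590-141010744) and Ifitm6 (chr7:141015812-141016892) are on the minus strand. All 4 were matched to 1 RefSeq promoter window each, the 250 bases before to 50 bases after the annotated start. The following stretches are shown because the genes differ in them while standing side by side. Capitals mark matches, on either strand, to the interferon-stimulated response element (GAAA, any 2 bases, GAAA), the Ets-IRF composite element (GGAA, any 2 bases, GAAA), the STAT element TTCNNNGAA or the TATA box TATAAA. The STAT element of Ifitm3, which overlaps another match, is left in lower case there. The windows of Ifitm1 and Ifitm2 are set on a start inside the annotated span of the gene.
Ifitm3, bases 1 to 30 from the start, chr7:141010715-141010744: agGAAAAGGAAActtctgaGAAACCGAAAc
Ifitm2, bases -60 to -31, chr7:140955992-140956021: taacccaccaacagGAAAAGGAAAttgcta
Ifitm6, bases -250 to -1, chr7:141016893-141017142: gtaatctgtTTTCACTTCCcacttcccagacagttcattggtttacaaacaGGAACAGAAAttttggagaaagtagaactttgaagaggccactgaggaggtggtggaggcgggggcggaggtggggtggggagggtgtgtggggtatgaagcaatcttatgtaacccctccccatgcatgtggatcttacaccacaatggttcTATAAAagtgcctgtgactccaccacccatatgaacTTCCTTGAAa
Ifitm1, bases -60 to -31, chr7:140968016-140968045: ggggtgggagtggctctccctgcccacacc

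Ifitm3 had the response element at bases 3 to 12 and again at 20 to 29, just past its start, with a STAT element at 14 to 22 that overlaps the second match by its last bases. Ifitm2 had it once, at -46 to -37, in the same letters as the match nearer to the start of Ifitm3. This element stood in 3.44% of 32851 mouse promoter windows of this length, and 0.225% held it at least 2 times. The longest run shared by the windows of Ifitm2 and Ifitm3 was 13 bases, caggaaaaggaaa, and no other pair of the 4 shared more than 9. Ifitm6 had no such element but held the Ets-IRF form at -241 to -232 and at -199 to -190. No base can start a match to both forms. The Ets-IRF form stood in 2.72% of windows, and 0.0761% held it at least 2 times. Ifitm6 also had a STAT element at -10 to -2, found in 8.3% of windows, and a TATA box at -46 to -41, found in 13.6%. Ifitm2 had a TATA box match too, at -175 to -170 on the other strand. The Ifitm1 window held none of these 4 motifs. Of the other 7 searched, C/EBP (TTNNGCAA), PU.1 (GAGGAAGT) and AP-1 (TGAGTCA) were in none of the 4 windows. GATAAG was in Ifitm3 alone, CCCGCCC in Ifitm2 and Ifitm3, CCAAT in Ifitm2 and Ifitm6, and CACCC in Ifitm1 and Ifitm6. A match describes letters in a window and is no evidence of a bound site.

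The deposited values were intensities on a common scale, with a 2% trimmed mean of 500.00 on each array. Values under 120.1, the median of all values pooled, were treated as too low to read (the floor). In counts of gene lists and markers, measured means only that a gene had a probe set of a single symbol. Such a gene can lie under the floor on every array. Medians per array lay between 114 and 132. The granulocyte array had all 11 measured granulocyte markers above the floor, and of 14 stem and progenitor markers it had 6 there, against 13 on the HPC and LT-HSC arrays and 14 on the ST-HSC array. The LT-HSC array stood apart: its granulocyte markers summed to 23306, 7 of 11 above the floor, against 442992 on the granulocyte array, 1628 on the HPC array and 3062 on the ST-HSC array. Markers of B-lineage cells summed to 13813 on the LT-HSC array with 6 of 7 above the floor, 6983 on the HPC array, 653 on the ST-HSC array and 1456 on the granulocyte array. Counts of the Ifitm genes, and those of some gene lists, are therefore also given without the LT-HSC array. Cd34, an antigen of the gate, was 2384 in LT-HSC, against 9778 in ST-HSC, and the stem cell marker Procr was 6229 in LT-HSC, against 1931 in ST-HSC and 311 in HPC. The actin ratio of 3′ to 5′ signal, a measure of how far transcripts were shortened, was 5.75 on the granulocyte array, against 12.2 to 16.1 on the other 3. The same ratio for Gapdh did not set the granulocyte array apart, with 12.4 there, against 17.8 on the HPC array, 14.9 on the LT-HSC array and 12.4 on the ST-HSC array. In sorted pools, fewer cells that carry a transcript and less of it per cell cannot be told apart.

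Ifitm6 was far higher in granulocytes than in the other 3 populations. Its signal was 34714 in granulocytes, against 69.3 for HPC, 174 for LT-HSC and 77.3 for ST-HSC. The HPC and ST-HSC signals lay under the floor, and the LT-HSC signal was close above it. The granulocyte signal was 199-fold that of LT-HSC and at least 289-fold that of HPC and of ST-HSC. Of all genes, 0.0275% were as far higher in granulocytes against LT-HSC and 0.0715% as far higher against HPC.

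Ifitm3, the gene of the endosomal antiviral protein, was highest in granulocytes too, but it was well measured in every population. Its signal was 27656 in granulocytes, against 2829 for HPC, 10891 for LT-HSC and 6632 for ST-HSC. Granulocytes were 9.77-fold higher than HPC, 4.17-fold higher than ST-HSC and 2.54-fold higher than LT-HSC.

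Ifitm2 had 1 high and 3 even signals. It was 9066 in granulocytes, against 4332 for HPC, 4147 for LT-HSC and 4376 for ST-HSC. Granulocytes were 2.07-fold to 2.19-fold higher than each of the others, and the 3 c-Kit populations lay within 1.06-fold of each other.

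Ifitm1 went another way. It was 4178 in granulocytes, against 2360 for HPC, 9544 for LT-HSC and 6047 for ST-HSC. Its highest signals were in the stem cells, and granulocytes stood between these and HPC. Granulocytes were 2.28-fold lower than LT-HSC, 1.45-fold lower than ST-HSC and 1.77-fold higher than HPC.

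**Figure D1:**
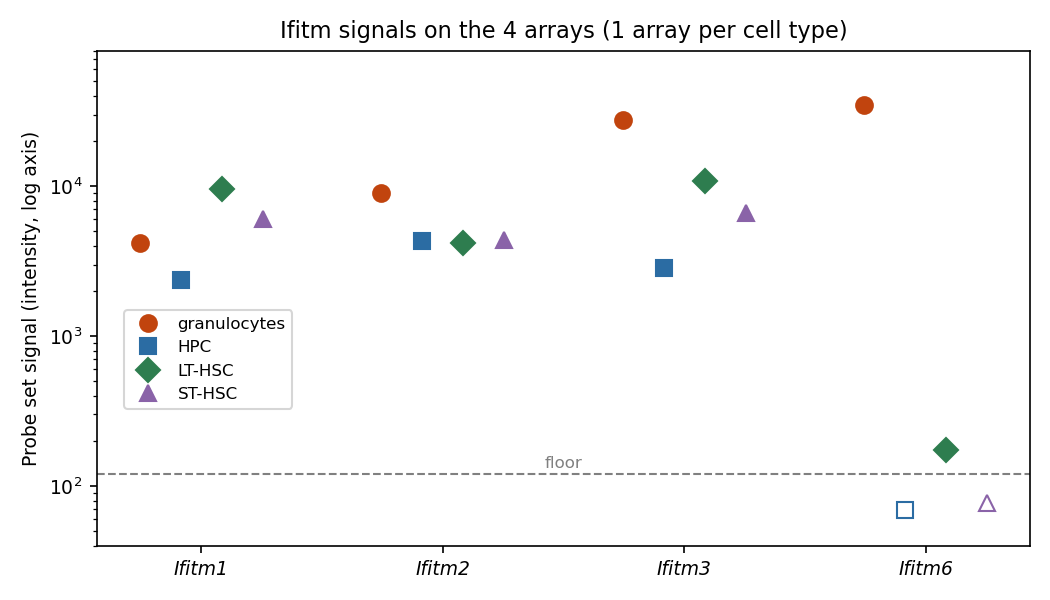
Probe set signal (intensity, log axis) of the 4 Ifitm genes on the 4 arrays, 1 point per array, with open symbols under the floor of 120.1 (dashed line). Ifitm6 reached 34714 in granulocytes and at most 174 elsewhere, while Ifitm1 was highest in LT-HSC, at 9544.

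With 1 array per population there is no replicate spread, so the spread between probe sets of the same gene served as a yardstick. Over genes with several probe sets, the SD of 1 probe set's log2 difference was 0.94 to 0.97 for granulocytes against another array and 0.63 to 0.67 between the c-Kit arrays. It holds no cell sampling or amplification error shared by the probe sets of a gene. Each Ifitm gene had 1 probe set, so none could be checked against another of its own. Probe sequences were not used here, so whether a probe set also takes up transcripts of another Ifitm gene was not tested. In units of this SD, granulocyte Ifitm6 stood 8.17 SD above LT-HSC and at least 8.45 SD above HPC and ST-HSC. Ifitm3 stood 3.43 SD above HPC, 2.13 SD above ST-HSC and 1.44 SD above LT-HSC. Ifitm2 stood 1.09 to 1.21 SD above each, and Ifitm1 lay 0.86 SD above HPC, 0.55 SD under ST-HSC and 1.27 SD under LT-HSC. In the order of levels, no neighbouring pair of Ifitm3 differed by 2 SD: granulocytes over LT-HSC was 1.44 SD, LT-HSC over ST-HSC 1.13 SD and HPC under ST-HSC 1.82 SD. The neighbouring pairs of Ifitm1 in its order of LT-HSC, ST-HSC, granulocytes and HPC lay 0.55 to 1.04 SD apart.

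Counted against each of the other 3 arrays at once, 1 of 4 Ifitm genes, Ifitm6, was at least 4-fold higher in granulocytes and 0 were lower, where 2.79% of all genes were higher and 5.22% lower. Such backgrounds, here and below, are over all 18193 genes, and only the 14292 above the floor on any array can be counted as higher or lower. As shares of those 14292 they would be larger. At 2-fold, Ifitm2, Ifitm3 and Ifitm6 were higher, 3 of 4, with a background of 8.72%. Without the LT-HSC array the same 3 were counted at 2-fold, with a background of 10.2% higher and 14.5% lower, and Ifitm3 joined Ifitm6 at 4-fold, 2 of 4 and 0 lower, with a background of 3.31% higher and 6.29% lower. The scale between arrays bears on Ifitm1, Ifitm2 and Ifitm3. With the arrays set to the same mean of the hybridization controls, Ifitm2 was 0.43, 0.54 and 0.66 log2 units higher in granulocytes against HPC, LT-HSC and ST-HSC in that order, while Ifitm3 was 0.76 higher than in LT-HSC, all under 2-fold. Ifitm1 was then 0.19 log2 units higher in granulocytes than in HPC, against 0.82 as deposited. With quantile normalization, Ifitm2 was 0.82 to 0.88 and Ifitm3 over LT-HSC 0.99 log2 units higher, again under 2-fold. With scaling to a common 75th percentile both stayed above 2-fold, Ifitm2 at 1.2 to 1.47 and Ifitm3 over LT-HSC at 1.68. Scaling to the hybridization controls also moved the background at 4-fold to 1.88% higher and 7.56% lower. With the common 75th percentile that background was 3.44% higher and 4.36% lower. The members were chosen with these differences known, so no more is read from the counts.

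Granulocyte markers on the LT-HSC array were not spread evenly. As a share of their granulocyte signal, S100a8, Ngp, Lcn2, Ltf, Camp and S100a9, genes of granule and cytosolic antimicrobial proteins, stood there at 11.9%, 10.1%, 5.98%, 5.66%, 5.07% and 3.19%. The cytokine receptor Csf3r stood at 3.24%, against 14.2% on the ST-HSC array. The granule proteases Mmp8 and Mmp9 and the surface receptors Cxcr2 and Itgam were under the floor. Ifitm6 stood on the LT-HSC array at 0.502% of its granulocyte signal, and Ifitm3 at 39.4%, Ifitm2 at 45.7% and Ifitm1 at 228%. On the ST-HSC array, where these markers summed to 0.691% of the granulocyte sum, Ifitm3 still stood at 24.0% and Ifitm1 at 145%. The part of granulocyte RNA in the LT-HSC signals of the Ifitm genes was not tested.

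Because Ifitm6 is known from macrophages, monocyte and macrophage markers were read beside it. They summed to 21063 on the granulocyte array, 18873 on HPC, 2928 on LT-HSC and 4940 on ST-HSC, with 9, 10, 9 and 9 of 13 above the floor. Csf1r, which encodes the M-CSF receptor, made up most of the sum in granulocytes and HPC, at 13089 and 11928. The macrophage genes Marco, C1qa and C1qb were under the floor on every array. In HPC, 5 of the 13 were at least 2-fold higher than in both stem cell populations and 0 lower, with backgrounds of 2.08% and 2.63%. In granulocytes, 2 of the 13, Adgre1 and Cd68, were at least 2-fold higher than in each other population and 0 lower, with backgrounds of 8.72% and 12.6%. Adgre1, which encodes the macrophage antigen F4/80, had 1102 in granulocytes, against 298 for HPC, 250 for LT-HSC and 140 for ST-HSC. Cd68, a lysosomal protein of macrophages, had 1640 in granulocytes, against 750.5 for HPC, 370.5 for LT-HSC and 285.5 for ST-HSC. Others were lower in granulocytes than in HPC, among them F13a1, with 151 against 2111, and Ms4a6c, with 1335 against 1560. Cx3cr1 had 34.4, under the floor, in granulocytes and 311 in HPC. The part of monocyte or macrophage RNA in the granulocyte signal of Ifitm6 was not tested.

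HPC, the progenitors outside the Sca-1 gate, had the lowest Ifitm1 and Ifitm3 of the 4 populations. Ifitm1 was 4.04-fold lower in HPC than in LT-HSC and 2.56-fold lower than in ST-HSC. Ifitm3 was 3.85-fold lower than in LT-HSC and 2.34-fold lower than in ST-HSC. These gaps were 3.20 and 3.09 SD against LT-HSC and 2.01 and 1.82 SD against ST-HSC. Ifitm2 was level, 1.04-fold higher than in LT-HSC and 1.01-fold lower than in ST-HSC, and Ifitm6 was under the floor in HPC and ST-HSC. At 2-fold, 2 of 4 Ifitm genes were lower in HPC than in both stem cell arrays, where 2.63% of all genes were lower and 2.08% higher. At 4-fold there were 0 of 4, with a background of 0.33% lower and 0.275% higher. Against ST-HSC alone, which leaves out the LT-HSC array, the same 2 were lower at 2-fold, with a background of 6.08% lower and 6.41% higher, and 0 at 4-fold, with a background of 1.02% lower and 1.08% higher. With scaling to the hybridization controls, HPC minus ST-HSC was -0.99 log2 units for Ifitm3, just under 2-fold, and -1.11 for Ifitm1.

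LT-HSC were higher than ST-HSC in Ifitm1 by 1.58-fold and in Ifitm3 by 1.64-fold, or 1.04 and 1.13 SD. Of all genes, 12.7% and 11.4% were as far higher in LT-HSC. Ifitm2 differed by 1.06-fold, and Ifitm6 was at least 1.45-fold higher in LT-HSC, with 174 against 77.3 under the floor. None of the 4 reached 2-fold, which 7.05% of genes did in the higher and 5.33% in the lower direction. The corresponding shares at 4-fold were 1.19% and 0.682%. This comparison cannot be given without the LT-HSC array. Its granulocyte markers summed to 23306, against 3062 on the ST-HSC array, and its B-lineage markers to 13813, against 653. The part of such RNA in these differences was not tested.

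The pair Ifitm1 and Ifitm3 had much the same differences among the c-Kit populations. Their log2 differences were -2.02 and -1.94 for HPC minus LT-HSC, -1.36 and -1.23 for HPC minus ST-HSC, and 0.66 and 0.72 for LT-HSC minus ST-HSC. These differ between the genes by 0.13 or less. Against granulocytes the pair parted: the difference of Ifitm1 lay 2.47, 2.54 and 2.59 log2 units under that of Ifitm3 for HPC, LT-HSC and ST-HSC. Over the 3 c-Kit arrays the root mean square distance of their centred log2 signals was 0.0525, and 5 of 8547 genes lay nearer to Ifitm1 and 6 nearer to Ifitm3. Ifitm2, which lies on the other side of Ifitm1 on the chromosome, was 0.86 away from Ifitm1 and 0.83 from Ifitm3 on the same measure. This pair and these arrays were chosen after the values were seen, and the distances rest on 3 points per gene.

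Over all 4 arrays Ifitm2, Ifitm3 and Ifitm6 were each highest in granulocytes, but the 4 genes differed in how far their signals ranged. Their root mean square distances were 0.87 between Ifitm2 and Ifitm3, 0.96 between Ifitm1 and Ifitm2, 1.10 between Ifitm1 and Ifitm3, and 2.55 to 3.64 between Ifitm6 and the others. The highest signal was 4.04 times the lowest for Ifitm1, 2.19 times for Ifitm2, 9.77 times for Ifitm3 and at least 289 times for Ifitm6. Over the 14292 genes above the floor on any array the median of this range was 2.34, and 54.5% had a range as wide as that of Ifitm2 and 0.098% one as wide as that of Ifitm6.

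The nearest genes in pattern, among 8549 named genes whose highest signal reached the 75th percentile of its array, differed for each member. Nearest to Ifitm6 were Plbd1 (distance 0.22), a phospholipase B-like protein of granules, Il1b (0.23), the cytokine interleukin 1 beta, Slfn4 (0.27), Pilrb1 (0.28), an activating receptor, and the formyl peptide receptor Fpr2 (0.28). Their signals were 21590 to 40124 in granulocytes and at most 281 on any other array. Slfn4 had 34636 in granulocytes, against 80.8 for HPC, 272 for LT-HSC and 157 for ST-HSC.

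Nearest to Ifitm3 were Pnpla8 (0.091), a phospholipase A2 of mitochondria and peroxisomes, Cldnd1 (0.13), Prrg2 (0.17), Pi4kb (0.17), a lipid kinase of the Golgi, and the transcription factor Zfhx3 (0.17). Pnpla8 had 5477 in granulocytes, against 628 for HPC, 2044 for LT-HSC and 1287 for ST-HSC, the order of Ifitm3. Nearest to Ifitm1 were Uaca (0.10), Utrn (0.14), which encodes the cytoskeletal linker utrophin, Golga3 (0.14), Rbsn (0.16), an early endosome protein, and Acsl3 (0.17), an acyl-CoA synthetase. Uaca had 218 in granulocytes, against 125 for HPC, 589 for LT-HSC and 321 for ST-HSC. The patterns nearest to Ifitm2 were much closer, at 0.025 to 0.036: Tuba4a, a tubulin, Sphk2, a sphingosine kinase, Myl12a, a myosin light chain, Gpd1l and Ppil2. Tuba4a had 41781 in granulocytes, against 19829 for HPC, 18255 for LT-HSC and 19771 for ST-HSC.

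**Figure D2:**
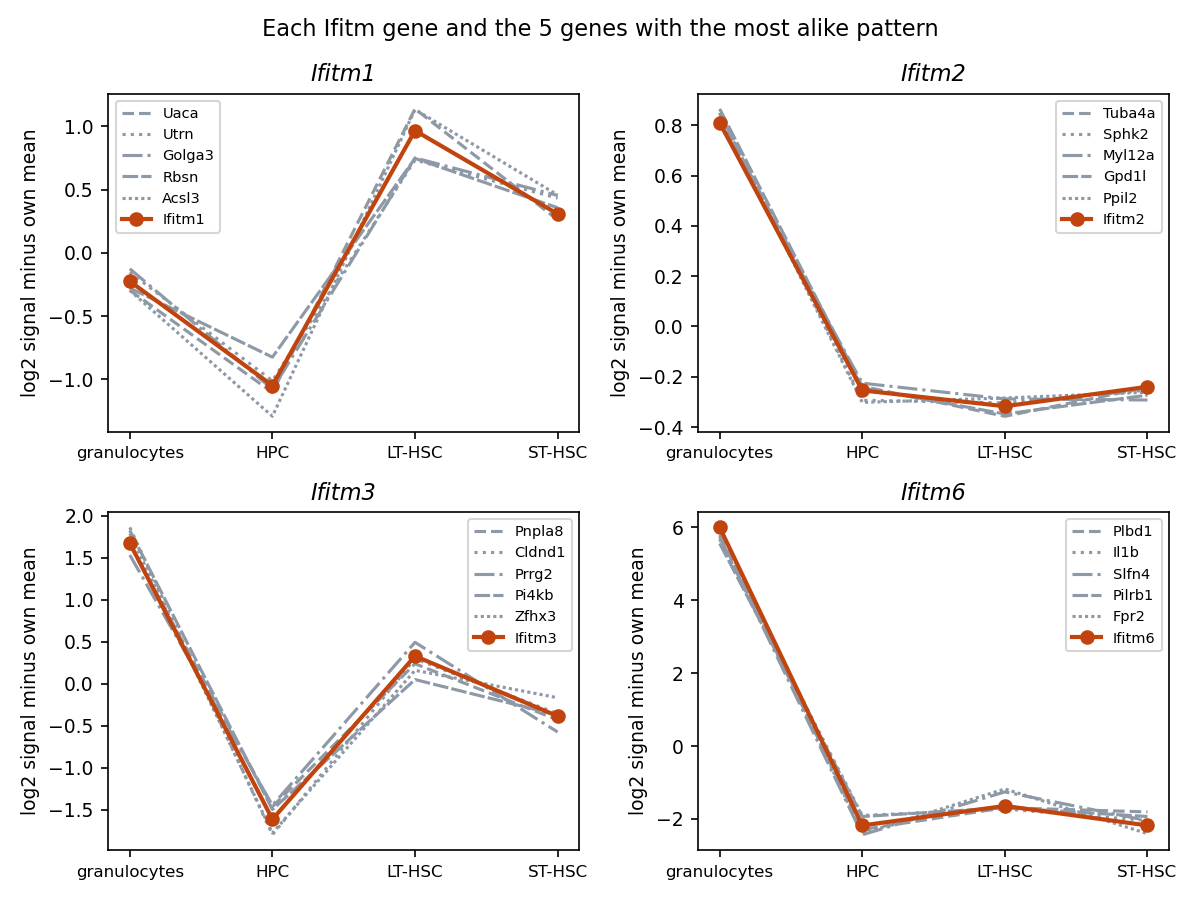
Log2 signals (floored at 120.1) minus the gene's own mean over the 4 arrays, for each Ifitm gene (solid line) and its 5 nearest genes (grey lines). The vertical scale differs between panels: Ifitm6 spans over 8 log2 units and Ifitm2 little more than 1.

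The genes around the cluster differed among themselves. Of the 5 RefSeq protein-coding genes on each side, 0 of 10 reached 2-fold higher in granulocytes against each other population and 3 were lower, where 8.72% of all genes were higher and 12.6% lower. Sirt3, a mitochondrial deacetylase, had 206 in granulocytes, against 3782 for HPC, 4615 for LT-HSC and 3528 for ST-HSC. Ptdss2, which makes phosphatidylserine, had 78.1, under the floor, in granulocytes, against 966 for HPC, 934 for LT-HSC and 945 for ST-HSC. Of its 9 probe sets, 1 had the opposite direction. Sigirr, an inhibitory receptor of the interleukin 1 family, had 263 in granulocytes, against 893 for HPC, 1068 for LT-HSC and 666 for ST-HSC. B4galnt4, the gene next to Ifitm6, had 213 in granulocytes, against 98.9 for HPC, 336 for LT-HSC and 81.3 for ST-HSC. Pgghg, a glucosidase of collagen, had 820 in granulocytes, against 185 for HPC, 479 for LT-HSC and 442 for ST-HSC, the same order of levels as Ifitm3. Pgghg and Pkp3, 2 of the 10, were at least 2-fold lower in HPC than in both stem cell populations, as were 2.63% of all genes. Of the others, Psmd13 had 754 to 1329 and Nlrp6 88.4 to 240, and Cox8b and Ano9 were under the floor throughout.

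**Figure D3:**
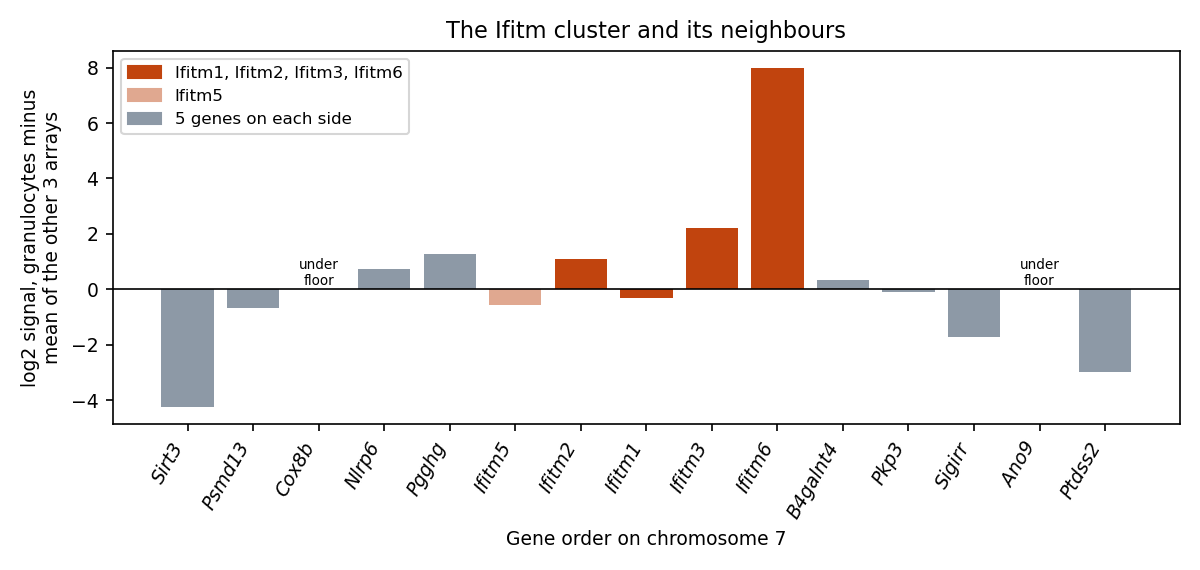
Log2 signal of granulocytes minus the mean of the other 3 arrays (floored at 120.1) for the Ifitm cluster and 5 protein-coding genes on each side, in chromosome order and not to scale. Ifitm6 stands highest, at 8.0, between Ifitm3 at 2.23 and B4galnt4 at 0.33, and Sirt3 lowest, at -4.26.

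Ifitm5, the bone member at the edge of the cluster, was near the floor: 52.2 in granulocytes, under it, 181 for HPC, 183 for LT-HSC and 172 for ST-HSC. Of the 10 other CD225 domain genes listed, 8 were measured, and 2 were at least 2-fold higher and 0 lower in granulocytes, with backgrounds of 8.72% and 12.6%. The median log2 difference was 0.00, as over all genes. Trarg1 and Syndig1, counted among the 8, were under the floor on every array, which puts their difference and this median at 0. Genes under the floor throughout also enter the median over all genes at 0. Ifitm10 had 618 in granulocytes, against 117 for HPC, 117 for LT-HSC and 69.8 for ST-HSC, all under the floor, so that it was at least 5.14-fold higher. Syndig1l, named for a relation to a synapse protein, had 319 in granulocytes and at most 17.3 on the others, at least 2.66-fold higher. Ifitm7 had 128 in granulocytes, against 252 for HPC, 309 for LT-HSC and 144 for ST-HSC, and was the 1 gene of this list at least 2-fold higher in LT-HSC than in ST-HSC.

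Genes of proteins that bind, modify or help IFITM proteins were counted next. Of 9 measured, 1 was at least 2-fold higher and 3 lower in granulocytes, with backgrounds of 8.72% and 12.6% and a median of 0.24. Without the LT-HSC array, 2 were higher, Cd9 and the palmitoyltransferase Zdhhc20, and the same 3 lower, with backgrounds of 10.2% and 14.5%. Another probe set of Zdhhc20 had the opposite direction in granulocytes against the mean of the other 3 arrays. Cd9, a tetraspanin of the plasma membrane, had 12509 in granulocytes, against 1791 for HPC, 3425 for LT-HSC and 1066 for ST-HSC, a gap of 3.65-fold or more. Cd81, the tetraspanin that forms a complex with IFITM1, had 2984 in granulocytes, against 10780 for HPC, 12187 for LT-HSC and 11753 for ST-HSC, at least 3.61-fold lower. Kdm1a, a demethylase that also acts on IFITM3, had 1036 in granulocytes, against 9557 for HPC, 9539 for LT-HSC and 3709 for ST-HSC. Nedd4, the ubiquitin ligase that marks IFITM3 for turnover, had 2609 in granulocytes, against 5357 for HPC, 6067 for LT-HSC and 7876 for ST-HSC. Zmpste24, a membrane protease that works with IFITM proteins, was just under 2-fold, at 1.97-fold, with 22585 in granulocytes, against 11470 for HPC, 5631 for LT-HSC and 7213 for ST-HSC; it was named after its values were seen.

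The receptors and signal carriers of interferon gave a mixed picture. Of 20 listed, 19 were measured, and 4 were at least 2-fold higher and 1 lower in granulocytes, with backgrounds of 8.72% and 12.6% (median 0.10). Socs1, counted among the 19, was under the floor on every array. Ifnlr1, a chain of the interferon lambda receptor, had 4466 in granulocytes, against 237 for HPC, 316 for LT-HSC and 82.2 for ST-HSC, a gap of 14.1-fold or more. Ifnar2, a chain of the receptor of type I interferon, had 13914 in granulocytes, against 4265 for HPC, 2960 for LT-HSC and 4017 for ST-HSC. Usp18, which shuts down that receptor, and Irf7, which amplifies the response, were 5.20-fold and 3.21-fold higher in granulocytes than in the next population, with 638 and 1049. Irf5, lower by 2.47-fold, had 209 in granulocytes, against 981 for HPC, 961 for LT-HSC and 517 for ST-HSC and was named after its values were seen. The 3 flattest genes of the list, those above the floor on every array with the smallest mean absolute log2 difference of granulocytes from each other population, were Ifngr2, Ifngr1 and Irf3, with Ifngr1, the ligand-binding chain of the interferon gamma receptor, at 2072 in granulocytes, against 2228 for HPC, 1882 for LT-HSC and 1714 for ST-HSC. None of the 19 was at least 2-fold higher or lower in HPC than in both stem cell populations, with backgrounds of 2.08% higher and 2.63% lower.

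Interferon-stimulated effectors other than the Ifitm genes were counted on 43 of 47 listed genes. Mx2 and Ifi204, among the 43, were under the floor on every array. At 2-fold, 9 of 43 were higher in granulocytes and 3 lower, with backgrounds of 8.72% and 12.6% and a median of 0.47. Without the LT-HSC array, 14 were higher, beside a background of 10.2%, and the same 3 lower. Samhd1, which depletes the nucleotides retroviruses need, had 29079 in granulocytes, against 1650 for HPC, 1366 for LT-HSC and 2311 for ST-HSC. Ifi27l2a had 1564 in granulocytes, against 24.7 for HPC, 123 for LT-HSC and 83.6 for ST-HSC. On the other side, Ly6e, a membrane protein that restricts coronaviruses, had 365 in granulocytes, against 3319 for HPC, 2573 for LT-HSC and 2240 for ST-HSC, and the GTPase gene Gbp3 had 6.0, under the floor, in granulocytes, against 1006 for HPC, 670 for LT-HSC and 629 for ST-HSC. The flattest by the same measure were Adar, which edits double-stranded RNA, Psmb8, a subunit of the immunoproteasome, and Trim21, an antibody receptor of the cytosol, and each had another probe set of opposite direction.

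Among the c-Kit populations, 4 of these 43 effectors were at least 2-fold lower in HPC than in both stem cell populations, as Ifitm1 and Ifitm3 were, and 1, Herc6, was higher. The 4 were Rsad2, Rtp4, Gbp2 and Oasl2, named after their values were seen. Rsad2, which encodes viperin, had 340 for HPC, 1497 for LT-HSC and 2101 for ST-HSC. Gbp2 had 928 for HPC, 2099 for LT-HSC and 2859 for ST-HSC. Rtp4 had 267 for HPC, 898 for LT-HSC and 771 for ST-HSC. The share of 4 in 43 stands beside a background of 2.63% lower, and the 1 higher beside 2.08%. Against ST-HSC alone 5 were lower and 4 higher, with backgrounds of 6.08% and 6.41%. The median of the list for HPC against both stem cell arrays was 0.00, as over all genes. Genes under the floor on all the arrays compared enter both medians at 0. In LT-HSC against ST-HSC, 7 of 43 were at least 2-fold higher and 2 lower, beside backgrounds of 7.05% and 5.33%.

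**Figure D4:**
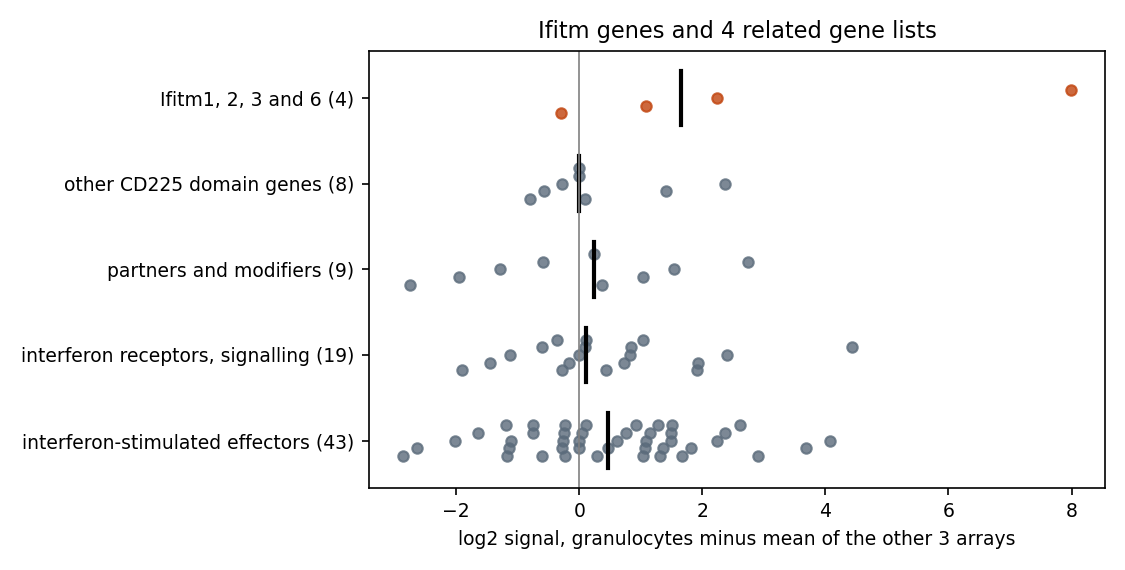
Log2 signal of granulocytes minus the mean of the other 3 arrays (floored at 120.1), 1 point per gene, for the Ifitm genes (orange) and 4 lists, with the number measured in brackets and a bar at the median. The medians of the lists lie between 0.00 and 0.47, and that of the 4 Ifitm genes, chosen with these values known, at 1.66.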

How the data were processed

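The deposited value table holds linear intensity, 1 value per probe set and array, in 1 column for each of the 4 populations. How the authors summarised the probes, and any detection calls, are not stated in the labels or in the table. Of 45101 probe sets, 64 controls were left out. By the platform annotation of GEO, 34945 had a single symbol, 932 had more than 1 and 9160 had none; only those with a single symbol were used. Positions and promoters came from RefSeq (GRCm38.p6), where all 4 members were found by Entrez number.

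Values under 120.1 were set to that floor before log2, and where 1 of the sides compared lay there the fold is a lower bound. The probe set of highest mean log2 signal stood for its gene. A population counted as 4-fold (for lists, 2-fold) higher or lower only if it was so against each array compared. With 1 array per population no test was run. Named genes were the members, 5 neighbours on each side, the 4 largest of each list in granulocytes, the 3 flattest of the interferon lists, the 5 nearest patterns of each member, and markers. The members and lists were chosen with earlier results of these data known. Alternatives changed the floor, the scale, the probe set rule and the fold, and, added after seeing the data, left out the LT-HSC array. The calls were run on simulated data for 6551 genes in the granulocyte comparison, with 200 changed 8-fold and noise of SD 0.3 log2 units. There, 99% of higher and 90% of lower genes were recovered and 0 unchanged genes were called. This noise was smaller than the SD between probe sets of the same gene for granulocytes against another array, 0.94 to 0.97 log2 units. Noise of that size was not tested. The number of arrays limits the precision. The software was Python 3.11.15 with pandas 2.3.3, numpy 2.4.6, matplotlib 3.10.9 and scipy 1.17.1.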

Additional observations from a re-analysis of the deposited data

How the results depend on the processing

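Of the recomputed log2 differences of the Ifitm genes, 211 moved by less than the SD between probe sets of 1 gene and 5 by more. These 5 were those of Ifitm6 with another floor: with the floor at the pooled 75th percentile its granulocyte differences were each 6.33, and with it at the 25th percentile HPC minus LT-HSC was -1.33 and LT-HSC minus ST-HSC 1.17. Many of the 211 could hardly move. Each Ifitm gene had 1 probe set, so the probe set rules left it unchanged. Ifitm1, Ifitm2 and Ifitm3 lay far above every floor tried. Scaling did act: Ifitm2 in granulocytes minus HPC went from 1.07 to 0.43 with the hybridization controls, and still counts among the 211. The count of Ifitm genes at least 4-fold higher in granulocytes was 1, against 3 at a threshold of 2-fold and 2 without the LT-HSC array, an alternative chosen after seeing the data. The count lower in HPC was 0, against 2 at 2-fold. The interferon receptor and signalling genes lower in granulocytes numbered 1, against 0 with the floor at the 75th percentile, 3 with scaling to the hybridization controls and 2 without the probe sets that may hit several transcripts. The interferon-stimulated effectors higher in granulocytes numbered 9, against 5 with the floor at the 75th percentile and 14 without the LT-HSC array, and those lower 3, against 5 with scaling to the hybridization controls. The causes were not tested, apart from the higher floor, which by construction shortens differences that start from it, and the left-out array, which leaves fewer arrays to exceed. The Ifitm2 differences among HPC, LT-HSC and ST-HSC ranged over -0.19 to 0.27 across settings, so their signs are not settled. No paired analysis was possible because each population had 1 array. Signals near the floor, among them Ifitm6 outside granulocytes and Ifitm5, are limited by the background of the arrays, whose absent controls reached 52.5 to 138.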
